A study of Rattus norvegicus with 21 samples.

Results

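The fuel genes described here are 9 genes that set how a heart muscle cell takes up and burns fatty acids and glucose, and all 9 were found by their Ensembl IDs in both count tables, out of 30560 IDs in each. Both count tables list genes by Ensembl ID alone, so the gene names are those given with the IDs when the genes were chosen. The members are Cpt1a (ENSRNOG00000014254), Cpt1b (ENSRNOG00000010438), Pdk4 (ENSRNOG00000009565), Ppara (ENSRNOG00000021463), Ppargc1a (ENSRNOG00000004473), Hk2 (ENSRNOG00000006116), Slc2a1 (ENSRNOG00000007284), Slc2a4 (ENSRNOG00000017226) and Ldha (ENSRNOG00000013009). They were measured by RNA sequencing in neonatal rat ventricular myocytes, primary ventricular muscle cells of newborn rats kept in a medium supplemented with insulin, transferrin and selenium. In the knockdown table the groups were siKlf2-PE, siNeg-PE, siKlf2 and siNeg, with 2 libraries each. Here siKlf2 is a small interfering RNA against the zinc finger transcription factor KLF2, siNeg is its negative control, and either was given 12 h before PE. The overexpression table held Ad-Klf2-PE, Ad-GFP-PE, Ad-Klf2 and Ad-GFP, with 3 libraries each. Ad-Klf2 is an adenovirus carrying Klf2 and Ad-GFP is the control virus for green fluorescent protein. Each was present for 24 h, which in the groups given PE followed 12 h of PE. PE is phenylephrine, an agonist of α1-adrenergic receptors that drives hypertrophic growth of cultured myocytes, used at 100 µM for 36 h. Groups without PE carry a time label of 0 h, and the labels do not say whether they were kept in culture as long as the PE groups, so PE and time in culture cannot be told apart. Where a gene is said to be raised or lowered by PE, the difference between these groups is meant. The limit also holds for the interactions, in which time since the siRNA or virus may differ between groups with and without PE. The labels name no separate animals or preparations of cells. The p-values therefore weigh differences only against library-to-library spread, which may be technical.

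A heart muscle cell can burn fatty acids or glucose. Long-chain fatty acids enter mitochondria through carnitine palmitoyltransferase 1, whose liver-type form is encoded by Cpt1a and whose muscle-type form is encoded by Cpt1b. Glucose enters through GLUT1 (Slc2a1), which works without insulin, or through the insulin-responsive GLUT4 (Slc2a4). Hexokinase 2 (Hk2) traps it in the cell and lactate dehydrogenase A (Ldha) turns pyruvate into lactate, while pyruvate dehydrogenase kinase 4 (Pdk4) keeps pyruvate out of mitochondrial oxidation. PPARα (Ppara) and its coactivator PGC-1α (Ppargc1a) switch on genes of fatty acid oxidation and mitochondria. The fetal heart leans on glucose and lactate, with more of its palmitoyltransferase in the liver-type form, and the adult heart on fatty acids. Hypertrophied hearts are commonly described as moving back towards the fetal pattern, with more glycolysis and GLUT1, less GLUT4, and less of the PPARα and PGC-1α program.

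The RNA libraries held 32693762 to 76138723 counts in the overexpression table and 181101876 to 224082309 in the knockdown table. Of counts between 1 and 20, 72.1% to 82.2% were even in the overexpression table and 59.8% to 66.6% in the knockdown table, so both mates of a read pair were probably counted for many fragments. The 3 Ad-GFP libraries without PE stood apart from the other 9 of their table. Their lowest correlation with a library of their own group was 0.959 to 0.965 in log CPM across genes, against 0.982 to 0.987 for the others, and 539 to 776 of their genes had 1 to 5 counts, against 1728 to 2022. Levels are given in CPM, each library's counts brought to a common total after TMM scaling, which centres most genes. Scaling by library totals alone moved the median log2 fold change of all tested genes by over 0.1 in several comparisons, from -0.04 to -0.30 for siKlf2-PE against siNeg-PE, from -0.02 to -0.22 for siKlf2 against siNeg, and from -0.01 to -0.21 for PE in Ad-Klf2. In bulk libraries, fewer cells of a type and less RNA per cell cannot be told apart. Because no other ID is paired with a name, markers of heart muscle and of other cell types, Klf2 itself and further genes of fuel metabolism were not analysed here.

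The RefSeq promoter table (build GRCr8) held 7 of the 9 members, all but Cpt1b and Slc2a4. The 250 bases before the annotated start are shown for Ppargc1a, Slc2a1 and Pdk4, which had the lowest fold changes of the 9 in Ad-Klf2-PE against Ad-GFP-PE. Capitals mark the KLF-type core CACCC or its reverse complement GGGTG, and the cAMP response element TGACGTCA.
Ppargc1a, GRCr8 chr14:63634058-63634307, plus strand: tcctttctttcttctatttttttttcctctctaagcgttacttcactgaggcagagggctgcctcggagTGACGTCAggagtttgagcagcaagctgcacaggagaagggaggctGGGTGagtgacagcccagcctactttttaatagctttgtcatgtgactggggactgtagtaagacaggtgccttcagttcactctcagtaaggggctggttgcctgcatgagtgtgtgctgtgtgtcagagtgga
Slc2a1, GRCr8 chr5:138002272-138002521, plus strand: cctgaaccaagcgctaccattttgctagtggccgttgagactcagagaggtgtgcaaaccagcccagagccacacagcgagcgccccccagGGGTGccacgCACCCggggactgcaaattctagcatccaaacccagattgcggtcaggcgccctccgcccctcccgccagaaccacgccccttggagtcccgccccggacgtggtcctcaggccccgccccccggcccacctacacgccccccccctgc
Pdk4, GRCr8 chr4:34568330-34568579, minus strand: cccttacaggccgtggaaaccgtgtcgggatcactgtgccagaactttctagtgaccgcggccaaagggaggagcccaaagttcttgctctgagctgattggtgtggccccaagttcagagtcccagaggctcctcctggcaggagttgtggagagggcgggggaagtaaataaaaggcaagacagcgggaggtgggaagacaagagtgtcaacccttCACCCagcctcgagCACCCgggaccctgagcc
Searched on both strands, the core CACCC was present once before Ppargc1a, on the reverse strand 135 bases upstream. It was present 2 times before Slc2a1, starting 159 and 149 bases upstream, and 2 times before Pdk4, starting 32 and 18 bases upstream. It was also present before Ppara and Ldha, and in 49.2% of all 33469 promoter windows of this length, so its presence is common. The element TGACGTCA lay 181 bases before Ppargc1a and 51 bases before Ldha, and 1.59% of all windows held it; this motif was added after the sequences were seen. The E-box CACGTG was found in the Ldha window alone among the 7 (5.59% of all windows). No window of these 7 held the letters TCAAGGTCA (ERR-type, 0.388% of all windows) or the PPAR-type direct repeat of AGGTCA with 1 base between its copies (0.0508%). These matches are descriptions of the sequence, and no binding of KLF2 at these windows was analysed here.

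Most of the 9 genes differed in most comparisons, in which large shares of all genes also differed. Calls rest on edgeR's quasi-likelihood test with Benjamini-Hochberg adjustment over all genes tested in a comparison, at a threshold of 0.05. For PE in siKlf2, 8 of 9 members were called (5 higher, 3 lower), beside 48.1% of all tested genes (24.4% higher, 23.7% lower). For PE in siNeg, 7 were called (4 higher, 3 lower), beside 49.1% of all tested genes (24.8% higher, 24.3% lower). For PE in Ad-Klf2, 8 were called (3 higher, 5 lower), beside 61.3% of all tested genes (31.6% higher, 29.6% lower). For PE in Ad-GFP, 6 were called (3 higher, 3 lower), beside 34.6% of all tested genes (18.3% higher, 16.3% lower). Knockdown gave 7 called members with PE (5 higher, 2 lower), beside 54.3% of all tested genes (26.1% higher, 28.2% lower), and 7 without PE (6 higher, 1 lower), beside 53.9% of all tested genes (27.2% higher, 26.8% lower). Overexpression gave 8 called members with PE (2 higher, 6 lower), beside 65.8% of all tested genes (33.6% higher, 32.1% lower). Without PE it gave 7 (3 higher, 4 lower), beside 35.1% of all tested genes (20% higher, 15.1% lower). The PE response differed between siKlf2 and siNeg for 6 members (4 with a higher log2 response in siKlf2, 2 with a lower one), beside 14.4% of all tested genes (7.08% higher, 7.35% lower). Between Ad-Klf2 and Ad-GFP it differed for 6 (1 higher, 5 lower), beside 49.1% of all tested genes (25.1% higher, 24% lower). The median log2 fold change of the 9 genes was 0.19 for siKlf2-PE against siNeg-PE, where that of all tested genes was -0.04, and -0.44 for Ad-Klf2-PE against Ad-GFP-PE, where that of all tested genes was -0.03. Without PE it was 0.23 for siKlf2 against siNeg and -0.07 for Ad-Klf2 against Ad-GFP. These medians pool genes that moved both ways, and the values with PE are those of Cpt1b and Ldha. Outside the siKlf2 interaction the background share was 34.6% or more, and the counts alone do not set the fuel genes apart from other genes. For the siKlf2 interaction, 4 members were called with library totals alone, beside 16.2% of all tested genes. The members were not compared with genes of similar expression in any comparison.

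**Figure D1:**
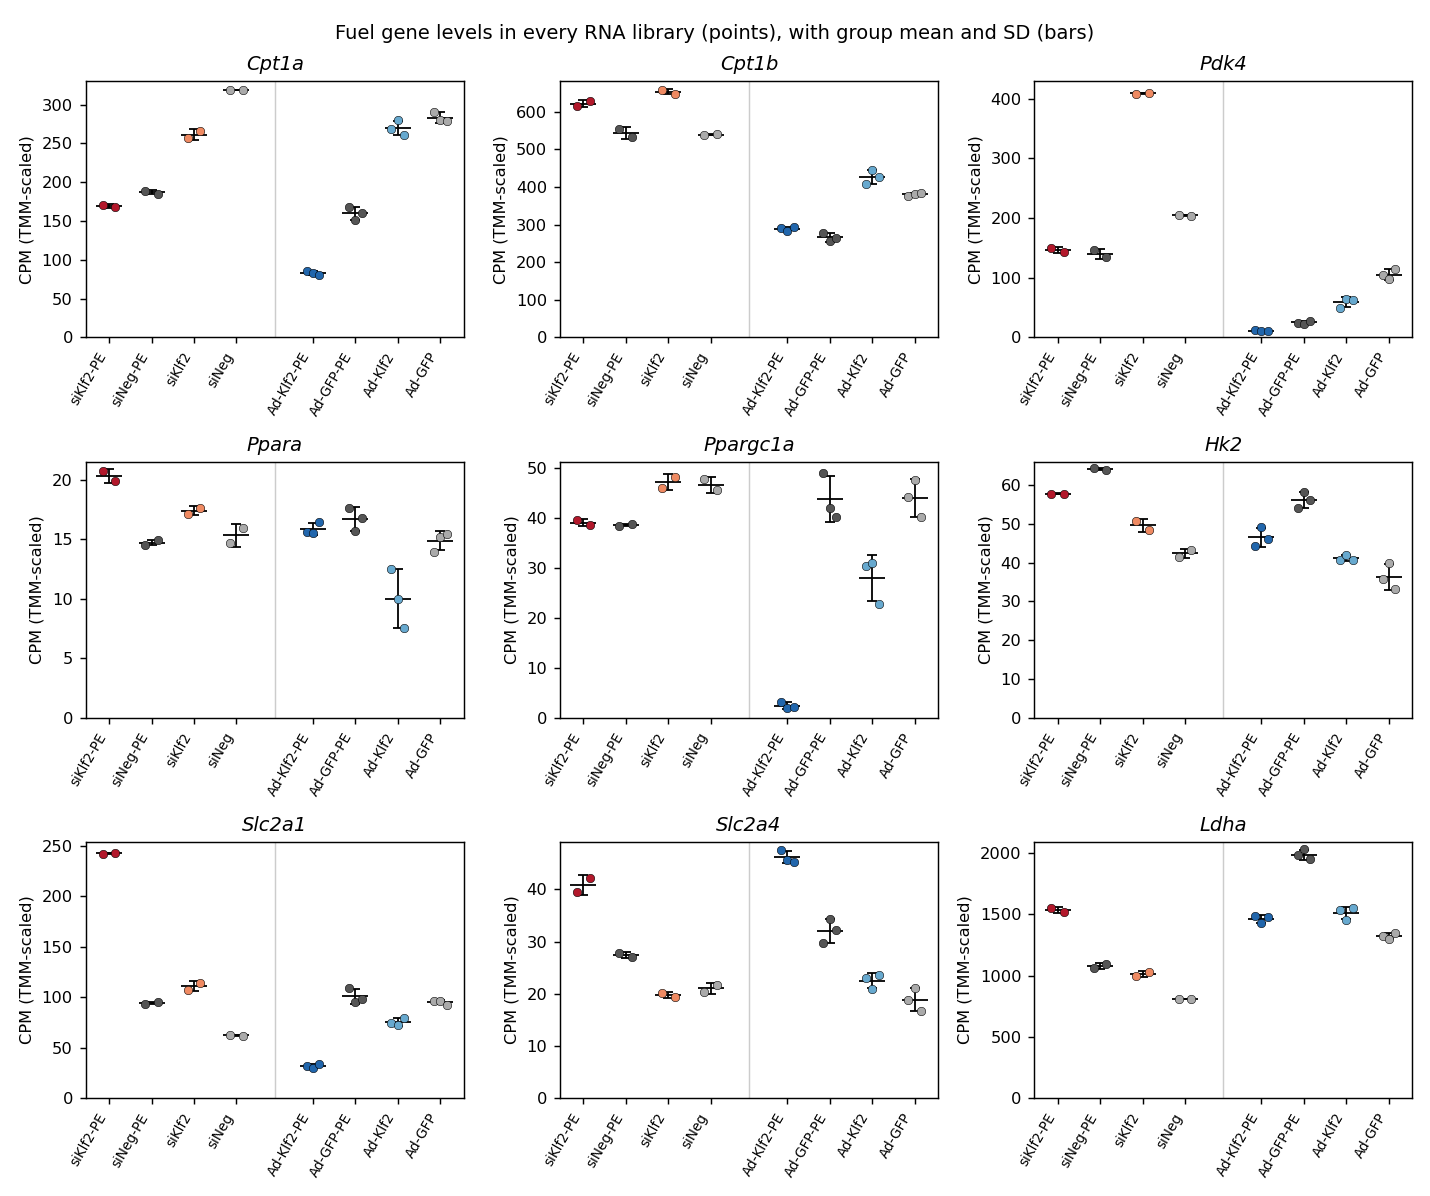
Level of each fuel gene in every RNA library, in TMM-scaled CPM on axes that start at 0. Points are libraries, long bars are group means and error bars are SD; the knockdown groups (2 libraries each) stand left of the grey line and the overexpression groups (3 each) right of it. Ppargc1a lay between 1.91 and 3.19 CPM in Ad-Klf2-PE and between 22.8 and 49 CPM in every other library of the overexpression table. Slc2a1 was highest in siKlf2-PE within the knockdown table and lowest in Ad-Klf2-PE within the overexpression table.

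The siNeg and Ad-GFP arms show how the fuel genes differed with PE where Klf2 was not targeted. Cpt1a and Pdk4 were lower and Hk2, Slc2a4 and Ldha higher with PE in both siNeg and Ad-GFP. Set beside the usual list of fetal-type changes, higher Hk2 and Ldha and lower Pdk4, a PPARα target, had the direction on that list. Higher Slc2a4 did not. Lower Cpt1a points both ways. Less of the liver-type form is not a fetal-type change, but less of a gene of fatty acid entry goes with less fatty acid use. Slc2a1 rose in siNeg (0.60, SE 0.0342, edgeR adjusted p = 7.76e-08), but in Ad-GFP it was not called, at 0.09 (SE 0.0671, edgeR adjusted p = 0.345). Ppargc1a fell in siNeg (-0.27, SE 0.0381, edgeR adjusted p = 0.000101), and in Ad-GFP the value was -0.01 (SE 0.133, edgeR adjusted p = 0.979). Ppara was called in neither, at -0.06 in siNeg and 0.17 in Ad-GFP, though with library totals alone the siNeg value was called at -0.16. Whether the 2 control arms differ from each other was not tested, since each table is a separate experiment. Every value for PE in Ad-GFP, for Ad-Klf2 against Ad-GFP without PE and for the interaction in the overexpression table rests on the Ad-GFP libraries that stood apart, and no value without them can be had. Without them, Cpt1b and Hk2 each lost a call, given with those genes, and the other calls for Ad-Klf2-PE against Ad-GFP-PE and for PE in Ad-Klf2 were kept.

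**Figure D2:**
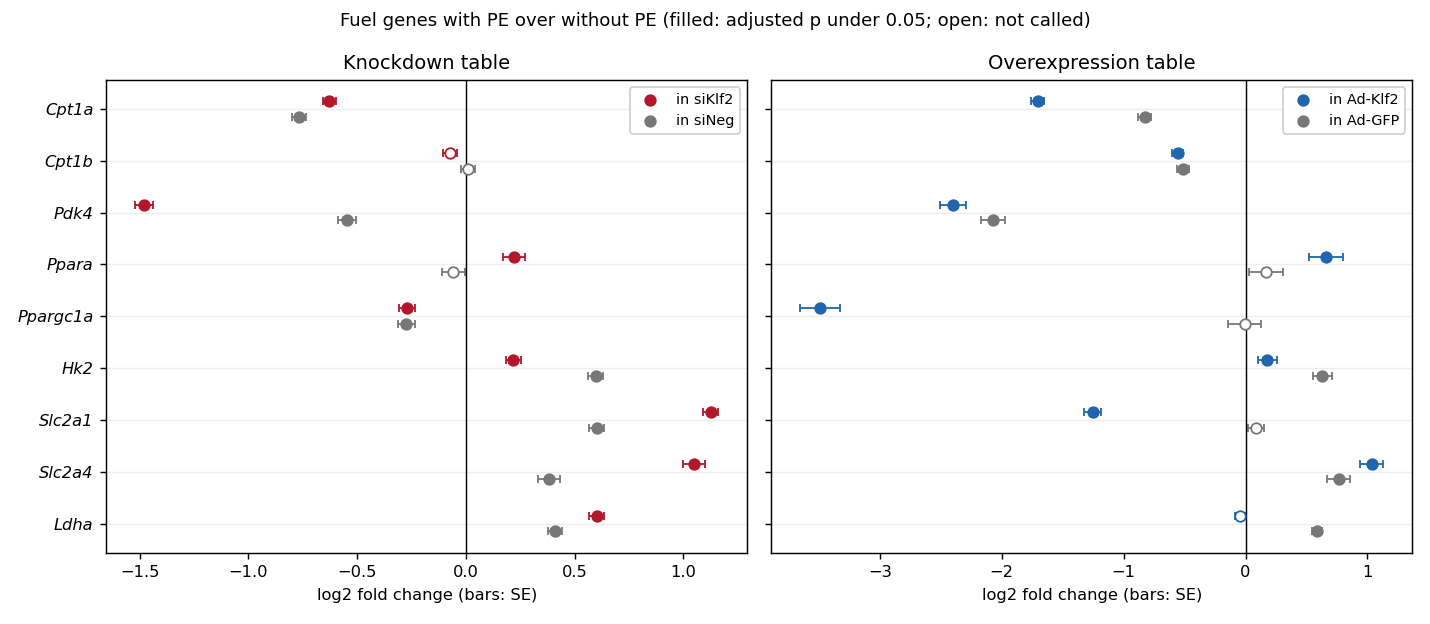
Log2 fold change of each fuel gene with PE over without PE, with SE bars, in siKlf2 and siNeg (left) and in Ad-Klf2 and Ad-GFP (right). Filled points were called at an adjusted p under 0.05 and open points were not; Ppargc1a and Slc2a1 lie far below 0 in Ad-Klf2 and near 0 in Ad-GFP.

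Cpt1a, the liver-type carnitine palmitoyltransferase and the form that predominates early in heart development, was lower with PE in all 4 arms. In the knockdown table it stood at 171 and 168 CPM in siKlf2-PE, 189 and 185 CPM in siNeg-PE, 256 and 266 CPM in siKlf2 and 318 and 318 CPM in siNeg. In the overexpression table it stood at 85.8, 82.6 and 79.8 CPM in Ad-Klf2-PE, 168, 151 and 160.3 CPM in Ad-GFP-PE, 269, 279.9 and 261 CPM in Ad-Klf2 and 291, 280.0 and 279 CPM in Ad-GFP. No library with PE reached the level of any library without PE in its table, and Ad-Klf2 overlapped Ad-GFP. PE gave log2 fold changes of -0.63 (SE 0.0311, edgeR adjusted p = 2.39e-08) in siKlf2, -0.77 (SE 0.031, edgeR adjusted p = 5.54e-09) in siNeg, -1.71 (SE 0.0546, edgeR adjusted p = 6.95e-15) in Ad-Klf2 and -0.83 (SE 0.0532, edgeR adjusted p = 9.28e-10) in Ad-GFP. The fall was deeper in Ad-Klf2 than in Ad-GFP, with an interaction of -0.88 (SE 0.0752, edgeR adjusted p = 1.33e-08). The interaction with knockdown was 0.14 (SE 0.0437, edgeR adjusted p = 0.0568), and it was called by DESeq2 (0.14) and without siNeg-PE replicate 1 (0.15). Both knockdown and overexpression lowered Cpt1a under PE. On the log2 scale siKlf2-PE differed from siNeg-PE by -0.15 (SE 0.031, edgeR adjusted p = 0.00201) and Ad-Klf2-PE from Ad-GFP-PE by -0.95 (SE 0.054, edgeR adjusted p = 1.29e-11). In cells without PE, knockdown lowered it as well (-0.29, SE 0.0308, edgeR adjusted p = 1.24e-05), while the value for Ad-Klf2 against Ad-GFP was -0.07 (SE 0.0525, edgeR adjusted p = 0.344).

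Cpt1b, the muscle-type form that carries most long-chain fatty acid entry in the adult heart, had fold changes with PE nearer to 0 than those of Cpt1a in all 4 arms. It stood at 615 and 629 CPM in siKlf2-PE, 554 and 532 CPM in siNeg-PE, 659 and 648 CPM in siKlf2 and 539 and 539.8 CPM in siNeg. With overexpression it stood at 290.4, 284 and 294 CPM in Ad-Klf2-PE, 278, 255 and 265 CPM in Ad-GFP-PE, 407, 444 and 426 CPM in Ad-Klf2 and 375, 381 and 384 CPM in Ad-GFP. PE thus separated the groups in the overexpression table, where every library with PE lay below every library without it, but siNeg-PE overlapped siNeg. The log2 fold changes with PE were -0.56 (SE 0.0477, edgeR adjusted p = 7.02e-09) in Ad-Klf2 and -0.51 (SE 0.0477, edgeR adjusted p = 1.15e-07) in Ad-GFP, against -0.07 in siKlf2 and 0.01 in siNeg, neither of which was called. The siKlf2 value was called at -0.24 with library totals alone, and at -0.072 without siNeg-PE replicate 1 or 2. Knockdown raised Cpt1b under PE (0.19, SE 0.0324, edgeR adjusted p = 0.000361), a value that turned to -0.071 with library totals alone. It also raised Cpt1b in cells without PE (0.28, SE 0.0324, edgeR adjusted p = 2.3e-05), a call that was lost with that scaling (0.081). Overexpression raised it by 0.12 (SE 0.0477, edgeR adjusted p = 0.0331) in PE-treated cells and by 0.16 (SE 0.0474, edgeR adjusted p = 0.0109) in untreated ones. The call under PE was lost with library totals alone (0.023), no filter (0.11) or halved counts (0.11). It was also lost without Ad-GFP-PE replicate 2 (0.11), and when the Ad-GFP libraries without PE were left out of the fit (0.054, edgeR adjusted p = 0.327).

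The ratio of both forms within a library does not depend on how libraries are scaled. Cpt1b counts per Cpt1a count were 3.6 and 3.75 in siKlf2-PE, 2.94 and 2.87 in siNeg-PE, 2.57 and 2.44 in siKlf2 and 1.69 and 1.7 in siNeg. Among the virus groups they were 3.38, 3.44 and 3.68 in Ad-Klf2-PE, 1.65, 1.69 and 1.65 in Ad-GFP-PE, 1.51, 1.59 and 1.63 in Ad-Klf2 and 1.29, 1.36 and 1.38 in Ad-GFP. These are ratios of counts that are not corrected for transcript length, so their changes can be read but not which form is more abundant. The ratio was higher with PE in all 4 arms and higher with both knockdown and overexpression, and the 4 groups of each table did not overlap. It moved towards the muscle-type form, which is not the direction of a fetal-type shift. In siNeg the rise with PE came with lower Cpt1a, while Cpt1b was not called. Like any ratio from bulk libraries, it can also move with the mix of cell types, which was not analysed here.

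Pdk4, which restrains pyruvate oxidation and is a standard PPARα target, had the largest fall of the 9 genes with PE in siKlf2 and in Ad-GFP. Its levels were 150.4 and 143 CPM in siKlf2-PE, 146 and 134 CPM in siNeg-PE, 408 and 409 CPM in siKlf2 and 205 and 204 CPM in siNeg. With overexpression they were 11.6, 10.9 and 10.9 CPM in Ad-Klf2-PE, 24.5, 22.8 and 27.6 CPM in Ad-GFP-PE, 49.5, 63.8 and 63.1 CPM in Ad-Klf2 and 104, 97.1 and 114 CPM in Ad-GFP. The siKlf2 group without PE was 2 times the siNeg level, while siKlf2-PE overlapped siNeg-PE, and the 4 virus groups did not overlap. PE lowered Pdk4 in every arm, with log2 fold changes of -1.48 (SE 0.0412, edgeR adjusted p = 2.92e-10) in siKlf2, -0.55 (SE 0.0406, edgeR adjusted p = 6.57e-07) in siNeg, -2.40 (SE 0.104, edgeR adjusted p = 4.45e-13) in Ad-Klf2 and -2.07 (SE 0.1, edgeR adjusted p = 1.98e-11) in Ad-GFP. The fall was deeper in siKlf2 than in siNeg, with an interaction of -0.93 (SE 0.0573, edgeR adjusted p = 3.65e-06). The interaction with overexpression was -0.33 (SE 0.141, edgeR adjusted p = 0.0638), and it was called without Ad-GFP replicate 3 (-0.39), Ad-Klf2 replicate 1 (-0.45) or Ad-GFP-PE replicate 2 (-0.41), with library totals alone (-0.39) and with no filter (-0.37). Without PE, knockdown raised Pdk4 by 1.00 (SE 0.0406, edgeR adjusted p = 5.65e-09) on the log2 scale, and 97.4% of tested genes had an equal or lower fold change. Under PE the value was 0.07 (SE 0.0406, edgeR adjusted p = 0.18). It was -0.20 with library totals alone, and it was called without siNeg-PE replicate 1 (0.13) or siKlf2-PE replicate 2 (0.13). Overexpression lowered Pdk4 in PE-treated cells (-1.17, SE 0.105, edgeR adjusted p = 1.11e-08) and in untreated cells (-0.84, SE 0.0951, edgeR adjusted p = 1.04e-06). In PE-treated cells 11.8% of tested genes had an equal or lower fold change.

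Ppara, the nuclear receptor that switches on fatty acid oxidation genes, was higher after knockdown of Klf2 and, in cells without PE, lower after overexpression. It stood at 20.7 and 19.9 CPM in siKlf2-PE, 14.5 and 14.9 CPM in siNeg-PE, 17.2 and 17.7 CPM in siKlf2 and 14.7 and 16 CPM in siNeg. With overexpression it stood at 15.6, 15.5 and 16.5 CPM in Ad-Klf2-PE, 17.6, 15.7 and 16.8 CPM in Ad-GFP-PE, 12.5, 9.97 and 7.53 CPM in Ad-Klf2 and 14, 15.2 and 15.4 CPM in Ad-GFP. Ad-Klf2 without PE was the lowest and most scattered group, and siKlf2-PE the highest of its table. Knockdown raised Ppara with PE (0.46, SE 0.0515, edgeR adjusted p = 1.57e-05). The rise without PE (0.18, SE 0.0515, edgeR adjusted p = 0.01) was not called without siNeg replicate 1 (0.12) or siKlf2 replicate 2 (0.17), and was -0.012 with library totals alone. Ad-Klf2 lay below Ad-GFP (-0.57, SE 0.142, edgeR adjusted p = 0.00402), at -0.37 without Ad-Klf2 replicate 3, and the value for Ad-Klf2-PE against Ad-GFP-PE was -0.07 (SE 0.14, edgeR adjusted p = 0.664). PE raised Ppara in Ad-Klf2 (0.66, SE 0.142, edgeR adjusted p = 0.000546) and in siKlf2 (0.22, SE 0.0514, edgeR adjusted p = 0.00402), the second no longer called with library totals alone (0.05). The interaction was 0.28 (SE 0.0728, edgeR adjusted p = 0.0263) in the knockdown table, where 4 of 8 fits without 1 library did not call it: those without siNeg replicate 2 (0.21), siKlf2 replicate 1 (0.27) or 2 (0.30), or siKlf2-PE replicate 1 (0.26). It was also not called with library totals alone (0.21). The corresponding value with overexpression was 0.49 (SE 0.199, edgeR adjusted p = 0.0494), which 10 of 12 such fits did not call, with values of 0.31 to 0.52, all but those without Ad-GFP replicate 1 or Ad-Klf2 replicate 1; the lowest was without Ad-Klf2 replicate 3. Library totals alone (0.43), no filter (0.45) and a replicate block (0.51) also ended this call.

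Ppargc1a, which encodes the coactivator of mitochondrial biogenesis and oxidative metabolism, showed the largest single change of the 9 genes. It was 3.19, 1.91 and 2.17 CPM in Ad-Klf2-PE, from 220, 61 and 126 counts, against 49, 42 and 40.3 CPM in Ad-GFP-PE, from 1734, 1367 and 1547 counts. Without PE it was 30.4, 30.9 and 22.8 CPM in Ad-Klf2 and 44.2, 47.6 and 40.1 CPM in Ad-GFP. In the knockdown table it was 39.6 and 38.7 CPM in siKlf2-PE, 38.4 and 38.8 CPM in siNeg-PE, 46 and 48.3 CPM in siKlf2 and 47.8 and 45.5 CPM in siNeg. All 3 Ad-Klf2-PE libraries lay below every other library of the overexpression table, and Ad-GFP-PE overlapped Ad-GFP. Ad-Klf2-PE differed from Ad-GFP-PE by -4.13 (SE 0.165, edgeR adjusted p = 6.84e-14) on the log2 scale, a level 17.5 times lower, and 0.57% of tested genes had an equal or lower fold change. It was -4.19 when the Ad-GFP libraries without PE were left out. Overexpression also lowered it in cells without PE, at -0.65 (SE 0.135, edgeR adjusted p = 0.00087). PE lowered it in Ad-Klf2 (-3.49, SE 0.164, edgeR adjusted p = 1.31e-12), and this response differed from that of Ad-GFP with an interaction of -3.48 (SE 0.211, edgeR adjusted p = 1.19e-10). Knockdown gave 0.02 (SE 0.0384, edgeR adjusted p = 0.723) in PE-treated cells and 0.01 (SE 0.038, edgeR adjusted p = 0.774) in untreated cells. With library totals alone both were called lower, at -0.25 under PE and -0.18 without it. PE lowered it in siKlf2 (-0.27, SE 0.0384, edgeR adjusted p = 0.000124) and in siNeg (-0.27), with an interaction of 0.00 (SE 0.054, edgeR adjusted p = 0.978).

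**Figure D3:**
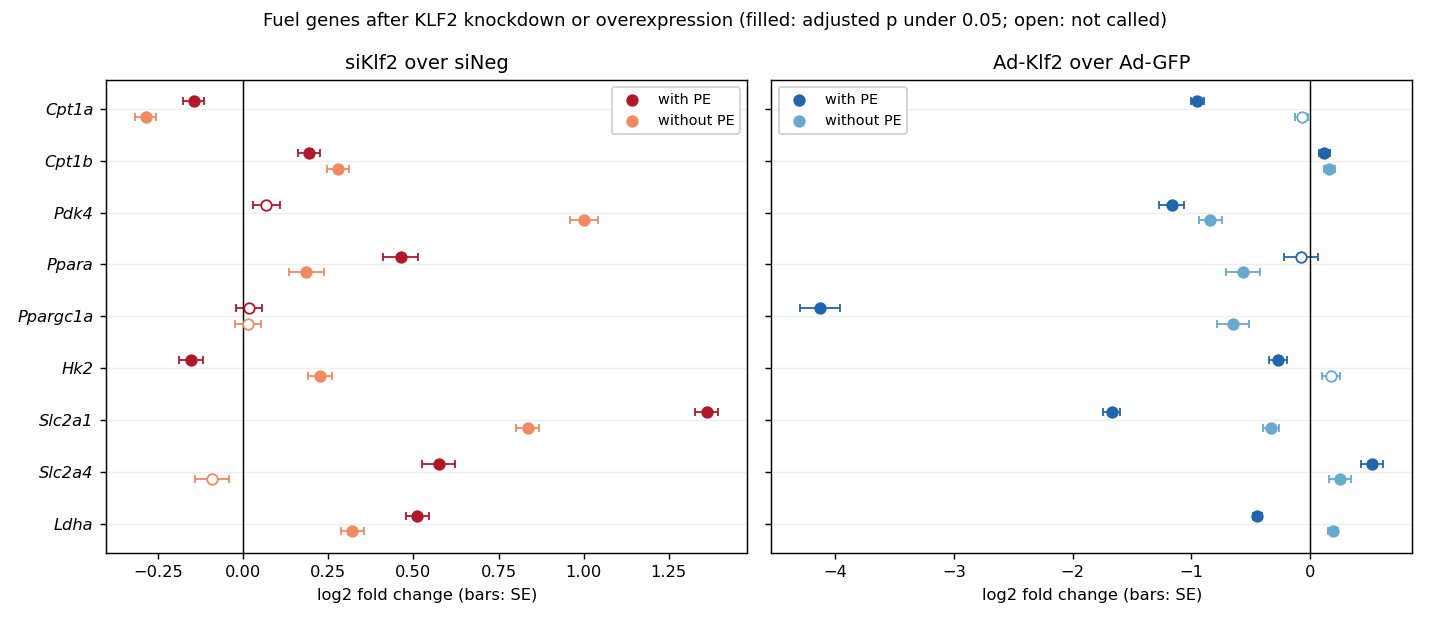
Log2 fold change of each fuel gene after Klf2 knockdown or overexpression, with SE bars: siKlf2 over siNeg on the left and Ad-Klf2 over Ad-GFP on the right, with and without PE. Filled points were called at an adjusted p under 0.05; the scales of the panels differ, and Slc2a1 lies highest on the left with PE while Ppargc1a and Slc2a1 lie lowest on the right with PE.

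Slc2a1, the gene of the insulin-independent transporter GLUT1 that predominates in the fetal heart, moved in opposite directions with knockdown and overexpression. Its levels were 243 and 243 CPM in siKlf2-PE, 93.7 and 95.5 CPM in siNeg-PE, 108 and 115 CPM in siKlf2 and 62.7 and 62 CPM in siNeg. With overexpression they were 32.1, 29.5 and 33.5 CPM in Ad-Klf2-PE, 109.5, 95.5 and 98.4 CPM in Ad-GFP-PE, 75.1, 72.3 and 79.9 CPM in Ad-Klf2 and 96.3, 96.4 and 92.8 CPM in Ad-GFP. All 4 knockdown groups were separate, with siKlf2-PE the highest, and in the other table only Ad-GFP-PE and Ad-GFP overlapped. Knockdown raised it under PE to 2.57 times the siNeg-PE level, which on the log2 scale is 1.36 (SE 0.0342, edgeR adjusted p = 1.76e-10) and equalled or exceeded the value of 98.7% of tested genes. The rise in cells without PE was 0.84 (SE 0.0343, edgeR adjusted p = 6.23e-09). Overexpression lowered it under PE to a level 3.18 times lower, on the log2 scale -1.67 (SE 0.0702, edgeR adjusted p = 1.41e-13). In that comparison 6.54% of tested genes had an equal or lower fold change. In cells without PE the fall was smaller, at -0.33 (SE 0.0673, edgeR adjusted p = 0.000736). The PE response was larger in siKlf2 (1.13) than in siNeg (0.60), with an interaction of 0.53 (SE 0.048, edgeR adjusted p = 4.59e-05). PE lowered Slc2a1 in Ad-Klf2 (-1.25, SE 0.0698, edgeR adjusted p = 1.54e-11), unlike in Ad-GFP, with an interaction of -1.34 (SE 0.0966, edgeR adjusted p = 1.27e-09).

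Slc2a4, the gene of the insulin-responsive GLUT4 of adult heart and skeletal muscle, was higher with PE in all 4 arms. Levels were 39.4 and 42.2 CPM in siKlf2-PE, 27.8 and 27 CPM in siNeg-PE, 20.1 and 19.3 CPM in siKlf2 and 20.3 and 21.7 CPM in siNeg. With overexpression they were 47.6, 45.7 and 45.3 CPM in Ad-Klf2-PE, 29.7, 34.3 and 32.3 CPM in Ad-GFP-PE, 23, 21 and 23.7 CPM in Ad-Klf2 and 18.7, 21.2 and 16.7 CPM in Ad-GFP. In each table the PE group with Klf2 knockdown or overexpression was the highest, and every library with PE lay above every library without it. PE raised Slc2a4 by 1.05 (SE 0.0493, edgeR adjusted p = 1.52e-08) in siKlf2, 0.38 (SE 0.0489, edgeR adjusted p = 5.18e-05) in siNeg, 1.04 (SE 0.0938, edgeR adjusted p = 1.58e-08) in Ad-Klf2 and 0.76 (SE 0.0942, edgeR adjusted p = 3.93e-06) in Ad-GFP. The response was larger in siKlf2 than in siNeg (interaction 0.67, SE 0.0692, edgeR adjusted p = 0.00011), and the interaction with overexpression was 0.27 (SE 0.132, edgeR adjusted p = 0.101), called only without Ad-GFP replicate 3 (0.35) among the 12 fits that left out 1 library. Slc2a4 was higher in siKlf2-PE than in siNeg-PE (0.57, SE 0.0484, edgeR adjusted p = 1.65e-06) and in Ad-Klf2-PE than in Ad-GFP-PE (0.53, SE 0.0928, edgeR adjusted p = 6.23e-05). The value for siKlf2 against siNeg was -0.09 (SE 0.0495, edgeR adjusted p = 0.141), and it was called lower with library totals alone (-0.29). The rise in Ad-Klf2 against Ad-GFP without PE (0.25, SE 0.0944, edgeR adjusted p = 0.0439) came from overlapping groups and was lost under several alternatives, with edgeR adjusted p of 0.0559 with RLE factors, 0.087 with library totals alone, 0.139 in a fit of only the 2 groups, 0.0524 with a replicate block, and 0.0561, 0.118, 0.0814 and 0.0809 without Ad-GFP replicates 1 and 3 and Ad-Klf2 replicates 1 and 3.

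As a ratio within each library, Slc2a4 counts per Slc2a1 count were 0.163 and 0.174 in siKlf2-PE, 0.297 and 0.283 in siNeg-PE, 0.187 and 0.168 in siKlf2 and 0.324 and 0.35 in siNeg. Among the virus groups the ratio was 1.48, 1.55 and 1.35 in Ad-Klf2-PE, 0.271, 0.359 and 0.328 in Ad-GFP-PE, 0.306, 0.29 and 0.296 in Ad-Klf2 and 0.195, 0.22 and 0.18 in Ad-GFP. Knockdown groups had the lower ratios of their table, towards the fetal-type transporter, and Ad-Klf2-PE had by far the highest. The mean log2 ratio was 0.54 ± 0.0992 in Ad-Klf2-PE and -1.66 ± 0.207 in Ad-GFP-PE (SD, n = 3 each). In siKlf2-PE it was -2.57 ± 0.0671 and in siNeg-PE -1.79 ± 0.0484 (SD, n = 2 each).

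**Figure D4:**
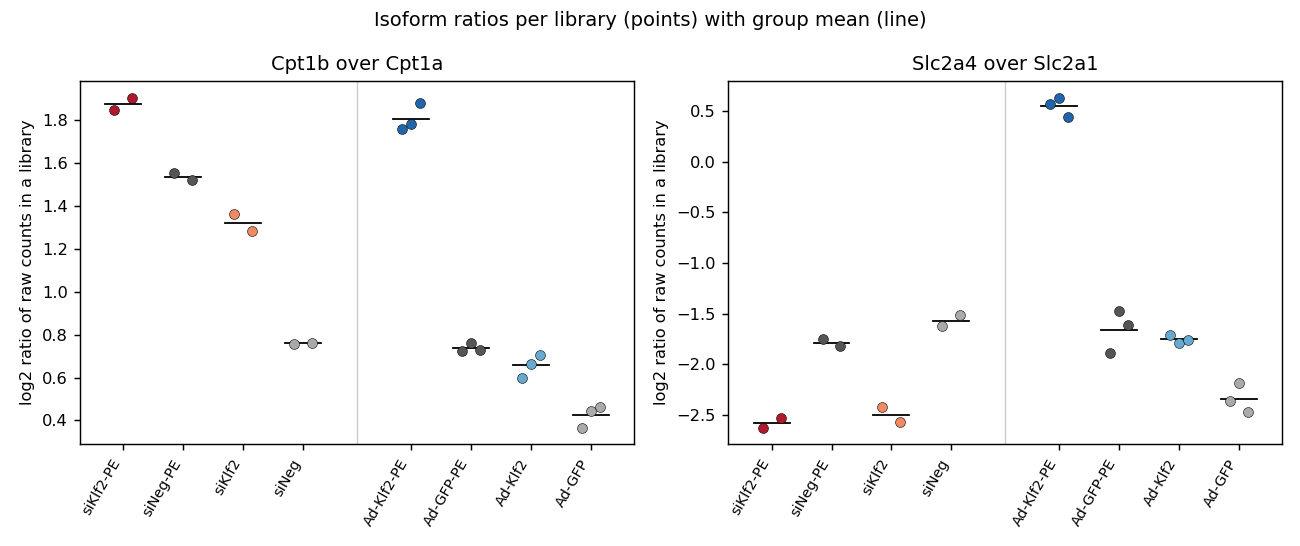
Log2 ratio of raw counts within each library, Cpt1b over Cpt1a on the left and Slc2a4 over Slc2a1 on the right; points are libraries and lines are group means. The transporter ratio lies above 0 in the 3 Ad-Klf2-PE libraries and below -1 in all others, and the carnitine palmitoyltransferase ratio is highest where PE is combined with siKlf2 or Ad-Klf2.

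Hk2, which phosphorylates glucose on entry, was highest in the control groups with PE. Levels in the knockdown table were 57.6 and 57.8 CPM in siKlf2-PE, 64.4 and 63.9 CPM in siNeg-PE, 50.8 and 48.4 CPM in siKlf2 and 41.6 and 43.2 CPM in siNeg. With overexpression they were 44.4, 49.2 and 46.2 CPM in Ad-Klf2-PE, 54.2, 58.2 and 56.3 CPM in Ad-GFP-PE, 40.6, 42.1 and 40.7 CPM in Ad-Klf2 and 35.7, 39.9 and 33.3 CPM in Ad-GFP. The 4 groups were separate in both tables, in the same order. PE raised Hk2 by 0.60 (SE 0.0347, edgeR adjusted p = 9.15e-08) in siNeg and 0.63 (SE 0.0758, edgeR adjusted p = 2.96e-06) in Ad-GFP. The response was smaller with knockdown and with overexpression, 0.22 in siKlf2 (interaction -0.38, SE 0.0491, edgeR adjusted p = 0.000461) and 0.18 in Ad-Klf2 (interaction -0.45, SE 0.107, edgeR adjusted p = 0.00167). The siKlf2 value lost its call with library totals alone (0.048). The value in Ad-Klf2 had an adjusted p of 0.0498 in edgeR, which was above 0.05 with no filter, with halved counts, in a fit of only the 2 groups and in all 12 fits that left out 1 library. It was 0.0649 without the Ad-GFP libraries that lacked PE, and the value was -0.018 with library totals alone. With PE, Hk2 fell in siKlf2 against siNeg (-0.15, SE 0.0346, edgeR adjusted p = 0.00301) and in Ad-Klf2 against Ad-GFP (-0.27, SE 0.0756, edgeR adjusted p = 0.00401), the second not called without Ad-Klf2-PE replicate 1 (-0.21, edgeR adjusted p = 0.0547). It was higher in siKlf2 than in siNeg (0.23, SE 0.0349, edgeR adjusted p = 0.000194), a call lost with library totals alone (0.031). Ad-Klf2 against Ad-GFP gave 0.18 (SE 0.0759, edgeR adjusted p = 0.0739), which was called without Ad-GFP replicate 2 (0.29) or Ad-Klf2-PE replicate 2 (0.21).

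Ldha, the lactate-forming enzyme at the end of glycolysis, was higher with PE in all arms but Ad-Klf2. Levels were 1555 and 1516 CPM in siKlf2-PE, 1061 and 1093 CPM in siNeg-PE, 996 and 1028 CPM in siKlf2 and 809 and 811 CPM in siNeg. With overexpression they were 1484, 1429 and 1479 CPM in Ad-Klf2-PE, 1984, 2030.1 and 1949.8 CPM in Ad-GFP-PE, 1534, 1456 and 1549.8 CPM in Ad-Klf2 and 1323, 1299 and 1348 CPM in Ad-GFP. Knockdown with PE gave the highest level of its table, whereas among the virus groups Ad-GFP-PE was highest and Ad-Klf2-PE overlapped Ad-Klf2. With PE, knockdown raised Ldha (0.51, SE 0.0332, edgeR adjusted p = 2.04e-07) and overexpression lowered it (-0.44, SE 0.0403, edgeR adjusted p = 1.34e-08). In cells without PE it was higher after both, at 0.32 (SE 0.0332, edgeR adjusted p = 8.7e-06) for knockdown and 0.19 (SE 0.0402, edgeR adjusted p = 0.000876) for overexpression. With 1 library left out this overexpression value ranged from 0.214 to 0.248, above that from all libraries. PE raised Ldha in siKlf2 (0.60), siNeg (0.41) and Ad-GFP (0.59), while in Ad-Klf2 the value was -0.05 (SE 0.0402, edgeR adjusted p = 0.323), called lower with library totals alone (-0.24). The Ad-Klf2 value ranged from -0.0914 to -0.0571 with 1 library left out, below that from all libraries. The interaction was -0.63 (SE 0.0569, edgeR adjusted p = 2.55e-08) with overexpression and 0.19 (SE 0.0469, edgeR adjusted p = 0.0197) with knockdown. The second was not called without siNeg replicate 1 (0.19) or 2 (0.19), siKlf2 replicate 1 (0.18) or siKlf2-PE replicate 1 (0.18), and with library totals alone it was 0.12 and not called.

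Knockdown and overexpression were set side by side for genes called in both tables, which share no libraries. With PE, 6 members were called in both and 2 of these, Slc2a1 and Ldha, moved in opposite directions, beside 56% of the 6918 genes called in both. Cpt1b and Slc2a4 were higher and Cpt1a and Hk2 lower with both knockdown and overexpression. With library totals alone the Cpt1b values were -0.071 for knockdown and 0.023 for overexpression, and neither was called. Without PE, 5 members were called in both and 3 of these, Pdk4, Ppara and Slc2a1, moved in opposite directions, beside 49.8% of 3790 genes. The Ppara value for knockdown without PE was -0.012 with library totals alone, and it was then not called. Slc2a1 was the member that was higher with knockdown and lower with overexpression in both conditions.

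Across all 20 RNA libraries, with log2 CPM centred within each table, the members' patterns were compared as a description. The libraries fall into groups that share treatment, so group differences enter these values. Of all pairs of members, Cpt1a and Pdk4 had the highest value (Pearson r = 0.913), and Cpt1a and Slc2a4 the lowest (r = -0.931). Cpt1a and Pdk4 did not move together in every comparison. In siKlf2 against siNeg without PE, Cpt1a was lower (log2 fold change -0.29) and Pdk4 higher (1.00). Among 8770 genes tested in both tables that averaged 10 CPM or more in each, the gene most like each member had an r of 0.907 (for Ppara) to 0.993 (for Ppargc1a), and none of these was another member. Each is the highest of many values, and the highest r of genes outside the members was not taken for comparison. The gene most like Ppargc1a was ENSRNOG00000046468 and that most like Cpt1a was ENSRNOG00000002413 (r = 0.987), IDs that are not paired with names here.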

How the data were processed

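The authors deposited raw counts by Ensembl ID in 2 tables, for knockdown and overexpression, made with Trim Galore, STAR and featureCounts on mRatBN7.2 per the submitters' processing notes, which give no versions. If both mates were counted, the counts are not independent fragments, and counting error is larger than the counts alone imply. Each table was fitted on its own with edgeR 4.0.16 in R 4.3.3: filterByExpr (minimum count 10, minimum total 15) kept 18173 genes of the knockdown and 16153 of the overexpression table, among them all 9 members. TMM factors and a quasi-likelihood fit with 1 coefficient per group over all 4 groups were used, with two-sided p-values adjusted by the Benjamini-Hochberg method over all tested genes. The SE of a log2 fold change is its size divided by the square root of the F statistic. edgeR's common biological coefficient of variation was 0.132 for overexpression and 0.049 for knockdown. The procedure was tested on simulated data: with the spread following the trend across genes, false calls stayed near the threshold, but with a spread of its own for each gene they exceeded it, most in the knockdown design, so calls with an adjusted p near 0.05 are less firm.

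The members and lists were chosen with earlier results of these data known. All 9 members are named in every comparison, with the gene most like each by Pearson r. The 3 lists of other fuel genes, the cell type markers and the CUT&Tag peak list were not used, because 0 Ensembl IDs matched the reference table and it is on GRCr8. Replicates of a group differed by more than sampling noise, with a chi-square per gene of 2.76 to 24.3 on halved counts. Alternatives were RLE factors, library totals, DESeq2 1.42.0, no filter, a replicate block, fits of only the 2 groups compared, counts halved and leaving out each library. A fit without the Ad-GFP libraries without PE was added after the data were seen. Tables and figures used Python 3.11.15, pandas 2.3.3, numpy 2.4.6 and matplotlib 3.10.9.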

Additional observations from a re-analysis of the deposited data

Results flagged for a closer look

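The response of 12 gene and table pairs to PE differed between siKlf2 or Ad-Klf2 and its control, by edgeR's test of the interaction with an adjusted p under 0.05. Values are log2 differences of the PE response, positive where it was higher in siKlf2 or Ad-Klf2. Time in culture, and time since the siRNA or virus, may be part of that response. In siKlf2 against siNeg they were 0.67 for Slc2a4, 0.53 for Slc2a1, 0.28 for Ppara, 0.19 for Ldha, -0.38 for Hk2 and -0.93 for Pdk4. In Ad-Klf2 against Ad-GFP they were 0.49 for Ppara, -0.45 for Hk2, -0.63 for Ldha, -0.88 for Cpt1a, -1.34 for Slc2a1 and -3.48 for Ppargc1a. The Ppara value in the overexpression table had an edgeR adjusted p of 0.0494, and that for knockdown one of 0.0263. With 1 library left out, the Ppara value for overexpression was not called in 10 of 12 fits. Library totals alone ended both Ppara calls (0.43 and 0.21) and that of Ldha in the knockdown table (0.12). All 6 values of the overexpression table include the Ad-GFP libraries without PE that stood apart, and the part of those libraries in the values was not tested.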

How the results depend on the processing

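The number of members called stayed within 1.5 times its value in each comparison under each alternative run. Of 630 values for a single gene under an alternative other than leaving out 1 library, 589 kept direction and call, 22 lost the call, 7 gained it and 12 changed sign; of 900 values with 1 library left out the numbers were 840, 38, 11 and 11. A fit that leaves 1 library in a knockdown group takes that library to vary like the others. With library totals alone the sign changed for Ppara (-0.012) and Ppargc1a (-0.18) in siKlf2 against siNeg, Cpt1b (-0.071), Pdk4 (-0.20) and Ppargc1a (-0.25) in siKlf2-PE against siNeg-PE, Cpt1b for PE in siNeg (-0.092), Ppargc1a for the knockdown interaction (-0.064), Hk2 for PE in Ad-Klf2 (-0.018) and Slc2a1 for PE in Ad-GFP (-0.049). Called values that kept their call but moved by over 1.5 times with library totals alone were, in siKlf2 against siNeg, Cpt1a (-0.48) and Ldha (0.12), in siKlf2-PE against siNeg-PE, Cpt1a (-0.41), Ppara (0.20), Hk2 (-0.42), Slc2a4 (0.31) and Ldha (0.25), and Ppargc1a for PE in siKlf2 (-0.44). The Ppargc1a interaction was -0.00101 with no filter, and the Cpt1b interaction in the overexpression table was 0.00423 with RLE factors and 0.0042 with DESeq2. With 1 library left out, Ppargc1a ranged from -0.018 to 0.0615 in siKlf2 against siNeg, from -0.0325 to 0.0374 for the knockdown interaction and from -0.107 to 0.0483 for PE in Ad-GFP. Cpt1b ranged from -0.0182 to 0.0422 and Ppara from -0.117 to 0.00827 for PE in siNeg. Of the values whose sign changed, those of Ppara, Cpt1b in siKlf2-PE and Hk2 with library totals alone were called with TMM scaling and all libraries, and the others were not; the cause was not tested.

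Deviations from the group mean over all tested genes had little correlation between libraries that share a replicate number across groups. The r was -0.0432 to 0.0403 in the knockdown and -0.0203 to 0.0446 in the overexpression table. With 2 libraries per group the deviations mirror each other, so the knockdown values come in equal pairs. Closest to their own number were 4 of 8 knockdown and 6 of 12 overexpression libraries. These values cannot show whether libraries shared a preparation of cells. With a replicate block, 6 members were called for Ad-Klf2 against Ad-GFP without PE, beside 34.4% of all tested genes. For the overexpression interaction 5 members were called with it, beside 48.5% of all tested genes. In that interaction Ppara had a log2 difference of 0.51 (edgeR adjusted p = 0.051). Distances of peaks to members were not run.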
